A study of Mus musculus with 10 samples.

Results

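SR proteins are splicing factors that carry an RNA recognition motif and a tail rich in arginine and serine, and that bind exons to help define them. Tra2a and Tra2b are related sequence-specific splicing activators built from the same kinds of domain. Genes of both kinds are known for controlling their own mRNA through alternative exons that send the transcript to decay. U1, the small nuclear RNA that pairs with 5′ splice sites, is also known to keep RNA from being cleaved and polyadenylated early inside introns.

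The members described here are all rows of the authors' deposited tables of intronic polyadenylation (IPA) sites whose gene symbol starts with Srsf or Sfrs or is Tra2a or Tra2b. At an IPA site the RNA is cut and polyadenylated within an intron, and the tables weigh that end against the gene's regular end in the last exon. The rule found 23 of 2311 rows. Of these, 21 rows in 9 genes come from the comparison of U1-blocked with control cells, and 2 rows, both in Tra2a, come from a comparison of cell lines. The RefSeq gene table holds 13 genes that the rule would take, and 4 of them (Srsf1, Srsf2, Srsf9 and Srsf12) have no row in any table.

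The study sequenced the 3′ ends of polyadenylated RNA in cultured cells of the mouse 4T1 family, mammary tumour lines that derive from a single tumour. There were 10 libraries, 2 in each of 5 groups: 4T1 cells in which a morpholino antisense to U1 RNA was added (4T1-U1-ASO), untreated or mock-treated 4T1, 4T07, 168FARN and 67NR. The 4T1 and 4T07 lines are called metastatic and labelled invasive, and 168FARN and 67NR are called non-metastatic and labelled non-invasive. For the morpholino the series design names a mock-transfected control, although no treatment is given in the 4T1 labels. The morpholino was delivered with Endo Porter at 6 µl/mL, and the level of U1 RNA was not measured here because U1 is not polyadenylated. Whether the 2 libraries of a group are separate cultures is not labelled, so every p-value below measures a spread between libraries that may be technical. The deposited peak lists held between 2499475 and 3347776 reads in 9 libraries; the list of 67NR replicate 2 covers 10 chromosomes and was left out of levels across groups.

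With U1 blocked, every listed IPA site of the SR and Tra2 genes was used more relative to its last exon. All 21 sites, in Tra2a, Tra2b, Srsf3, Srsf4, Srsf5, Srsf6, Srsf7, Srsf10 and Srsf11, are listed as higher in 4T1-U1-ASO in the authors' deposited table, where 87.6% of the 1561 listed sites are higher. Usage, which is IPA reads over the sum of IPA and last-exon reads in a library, in percent, was above both 4T1 libraries in both 4T1-U1-ASO libraries at 21 of 21 sites, against 87.5% of all listed sites. The direction was thus that of most listed sites. The sizes ranged widely, with mean usage in 4T1-U1-ASO between 1.53% (Srsf3) and 57.0% (Srsf10). An exact permutation test of 2 libraries against 2 cannot give a two-sided p below 0.333, so usage is given without a test. The libraries hold bulk RNA, so more cells using a site and more use per cell cannot be told apart.

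**Figure D1:**
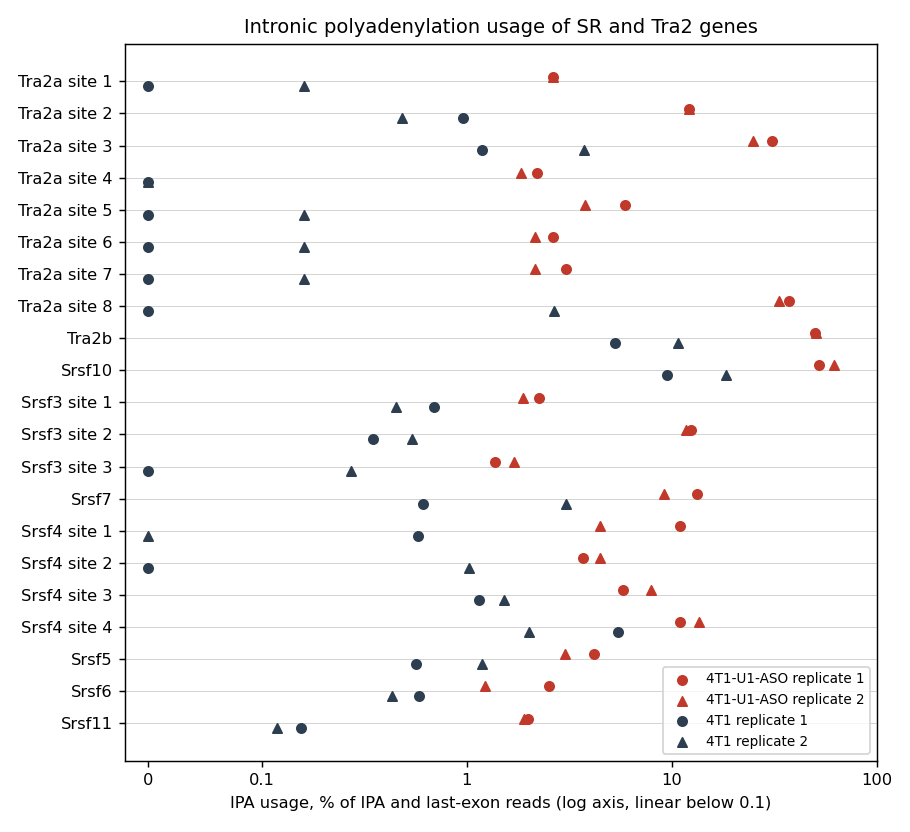
IPA usage of the 21 sites in each library, on a log axis that is linear below 0.1%; circles and triangles are replicates 1 and 2 of 4T1-U1-ASO (red) and 4T1 (dark), and sites of a gene are numbered from its 5′ end. At each site both red symbols lie to the right of both dark ones, and the sites of Tra2b and Srsf10 and site 8 of Tra2a have the highest usage in 4T1-U1-ASO.

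Reads at the IPA site and at the last exon were then tested apart, with edgeR's quasi-likelihood test on reads recovered from the deposited values (Benjamini-Hochberg adjusted p under 0.05). IPA reads rose at 15 of 21 sites (71.4%), where 57.2% of all 1561 sites rose. They fell at 0 of 21, where 12.2% of all sites fell, and with DESeq2 at 0 of 21, where 7.3% fell. None of the 21 fell at an unadjusted p under 0.05 either, where the share of all sites was not counted. Of the 15 sites that rose, 8 are those of Tra2a, which share a gene. Outside Tra2a, 7 of 13 sites (53.8%) rose. All 21 sites are listed as higher, while 193 of the 1561 are listed as lower. The shares and medians of members and of all sites therefore do not compare like sites, and the 0 falls add no separate evidence. The median log2 change of IPA reads was 3.20 over the 21 member sites, 1.68 over the 13 outside Tra2a and 1.58 over all listed sites. Last-exon reads fell in 6 of 9 genes (66.7%), where 54.9% of 1131 genes fell. They rose in 0 of 9, where 9.37% of all genes rose, and with DESeq2 in 0 of 9, where 7.52% rose. None of the 9 rose at an unadjusted p under 0.05 either, where the share of all genes was not counted. The count of falls changed when single libraries were left out, where 1 group rests on 1 library. Without 4T1-U1-ASO replicate 2, the median last-exon change was -0.779 over the 9 genes and -0.669 over all genes. Without 4T1 replicate 1, it was -0.978 over the 9 genes and -0.622 over all genes. The median log2 change of last-exon reads was -0.79 over the 9 genes and -0.66 over all 1131 genes. These levels depend on the scaling: with library sizes set to peak-list totals instead of the authors' size factors, the median of all last-exon changes was -0.05 and that of all IPA changes 2.16. Last-exon reads then fell in 3 of 9 genes (Srsf3, Srsf6 and Srsf7), where 25.9% of all genes fell, and IPA reads rose at 19 of 21 sites, where 76.8% of all rose. With DESeq2, IPA reads passed at 8 of 21 sites, where 17.9% of all sites passed. Since the tables hold sites that the authors had already selected, all 1561 sites pass a test of IPA relative to the last exon, and the p-values here add no independent evidence.

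**Figure D2:**
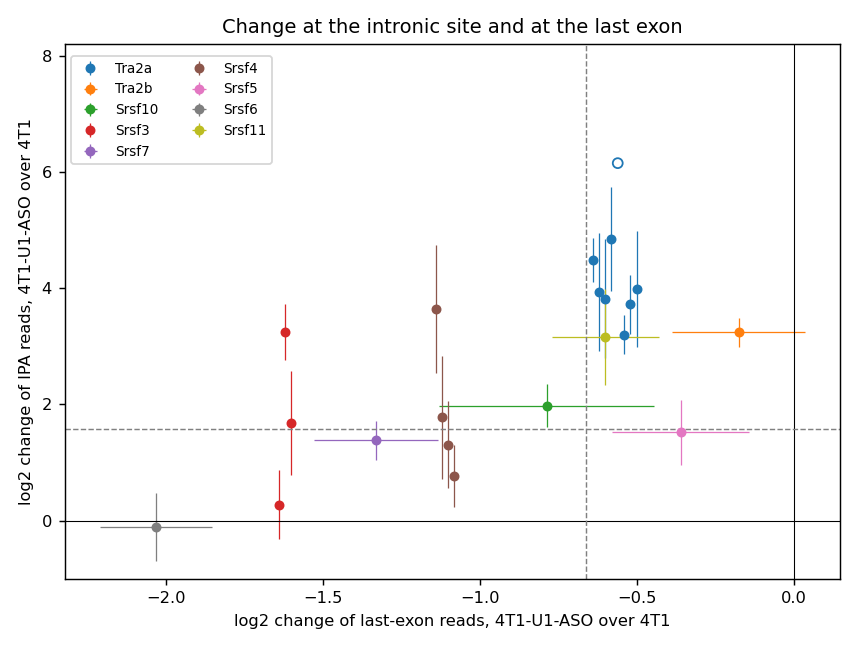
Log2 change of IPA reads (vertical) against that of last-exon reads (horizontal), 4T1-U1-ASO over 4T1, for 21 sites with 1 colour per gene; bars are standard errors, sites of 1 gene share a last-exon value and are spread sideways slightly, the open circle is a site with 0 reads in 4T1 and dashed lines are the medians of all listed sites (1.58 and -0.66). The Tra2a sites lie at 3.20 to 6.15 in IPA reads with a last-exon change of -0.57, and Tra2b lies at 3.24 with -0.175. Srsf6 lies at the lower left with a last-exon change of -2.03.

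Tra2a had more listed IPA sites than any other SR or Tra2 gene, 8 within a stretch of chromosome 6 (mm9, minus strand), and they received most of the 3′ ends of the gene when U1 was blocked. Its last exon was read 445 and 591 times in 4T1-U1-ASO, against 415 and 622 times in 4T1. Its 8 sites together had 599 and 650 reads in 4T1-U1-ASO, against 9 and 48 reads in 4T1. The combined sites thus took 57.4% and 52.4% of the gene's reads in 4T1-U1-ASO (mean 54.9% ± 3.53, SD, n = 2), against 2.12% and 7.16% in 4T1 (mean 4.64% ± 3.56, SD, n = 2). The groups did not overlap, and the SD of the combined share was about the same in both. The 8 sites share 1 last exon and are not independent measurements.

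The site nearest the last exon of Tra2a, at chr6:49202725-49203929 and 7996 bases upstream of the last-exon peaks, carried 45.0% of the gene's IPA reads in 4T1-U1-ASO. It had 265 and 297 reads in 4T1-U1-ASO, against 0 and 17 reads in 4T1, and its usage was 35.4% ± 2.74 against 1.33% ± 1.88 (SD, n = 2 each). The authors' deposited table gives it a log2 fold change of 4.09 (SE 0.63, adjusted p 0.000). The IPA reads rose by 4.48 on the log2 scale (SE 0.377, edgeR quasi-likelihood adjusted p = 1.19e-15), a normalised ratio of 22.1 with a 95% interval of 13.7 to 38.3 for counting error alone. The 0 belongs to 4T1 replicate 1, without which the change was 3.66 (edgeR adjusted p = 0.000484). With DESeq2 the change of 4.65 (SE 2.15) missed the threshold (adjusted p = 0.0808).

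Farther upstream in Tra2a, chr6:49210041-49211611 held 31.5% and chr6:49212579-49213183 held 11.4% of the gene's IPA reads. The first of these had 197 and 196 reads in 4T1-U1-ASO, against 5 and 24 reads in 4T1, with a usage of 27.8% ± 4.09 against 2.45% ± 1.79. Its IPA reads rose by 3.20 on the log2 scale (SE 0.338, edgeR adjusted p = 4.7e-12), by 2.64 without 4T1 replicate 1 and by 4.47 without 4T1 replicate 2. The other had 61 and 81 reads in 4T1-U1-ASO, against 4 and 3 reads in 4T1, and rose by 3.72 (SE 0.504, edgeR adjusted p = 8.1e-09). Neither site overlapped between the groups. The IPA reads of Tra2a were therefore concentrated at 3 sites spread over several kilobases, with the other 5 holding between 1.68% and 4.08% each.

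Those 5 minor sites of Tra2a had 10 to 28 reads per 4T1-U1-ASO library, against 0 or 1 read per 4T1 library. At chr6:49209572-49209778, 10 and 11 reads in 4T1-U1-ASO stood against 0 in both 4T1 libraries. Against a floor of 3 reads over the 4T1 group, the normalised ratio was 4.69, which leaves out counting error in the treated reads. The interval for counting error had a lower end of 3.49. The 0 reads beside 1037 last-exon reads allow a usage of up to 0.289% in 4T1. The other 4 minor sites had 1 read each in 4T1, so their ratios are wide: 34.1 with an interval of 5.86 to 1370 at chr6:49209195-49209370, and 16.7 to 18.7 elsewhere. All 8 sites of Tra2a rose in the edgeR test of IPA reads, with adjusted p between 1.19e-15 and 0.000788. Without 4T1 replicate 1, whose reads at the 5 minor sites were all 0, the changes at the 4 minor sites with a read in 4T1 were 3.13 to 4.15 and still passed. With DESeq2, 3 of the 5 minor sites missed the threshold, as the most used site did.

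**Figure D3:**
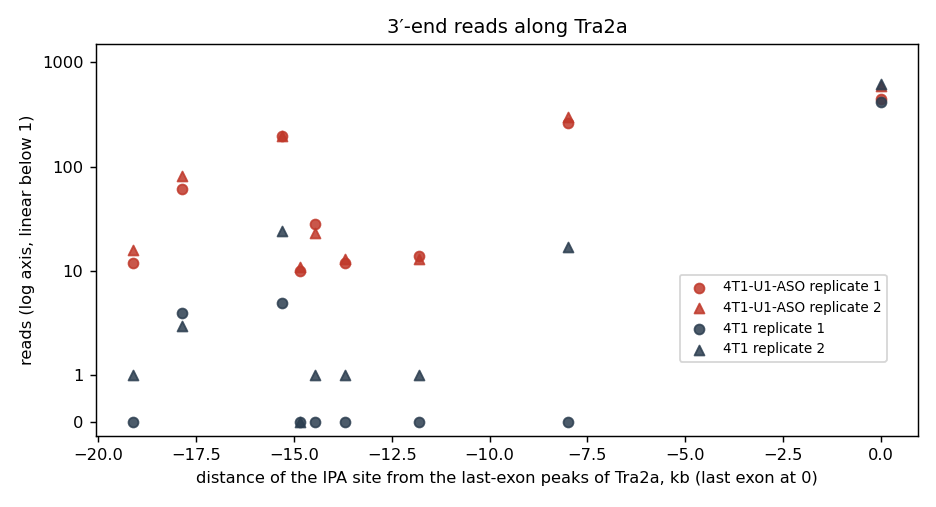
Reads of the 8 IPA sites of Tra2a in each library against the distance from the last-exon peaks, with the last exon itself at 0; the vertical axis is logarithmic and linear below 1 read. All 8 sites lie higher in 4T1-U1-ASO (red) than in 4T1 (dark). Reads are not scaled for depth, and so the last-exon reads of the 4 libraries, 415 to 622, overlap between the groups. Divided by the authors' size factors (1.25 and 1.27 for 4T1-U1-ASO, 0.722 and 0.967 for 4T1) they do not overlap, and scaled to peak-list totals they do.

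Last-exon reads of Tra2a fell by 0.57 on the log2 scale (SE 0.203, edgeR adjusted p = 0.0389), beside a median of -0.66 over all listed genes. This call did not hold with TMM scaling (-0.43, adjusted p = 0.125), and with peak-list totals the value was 0.02.

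Tra2b, the paralogue of Tra2a, had 1 listed site, and it took about as many 3′ ends as the last exon when U1 was blocked. The site at chr16:22258935-22259386 (mm9, minus strand) lies 12357 bases upstream of the last-exon peaks. It had 516 and 686 reads in 4T1-U1-ASO, against 19 and 68 reads in 4T1. The last exon had 514 and 672 reads in 4T1-U1-ASO, against 341 and 568 reads in 4T1. Usage was thus 50.1% and 50.5% in 4T1-U1-ASO, against 5.28% and 10.7% in 4T1, so that IPA and last-exon ends were read about equally often in both treated libraries. IPA reads rose by 3.24 on the log2 scale (SE 0.254, edgeR adjusted p = 6.32e-17), a ratio of 9.25 with a counting interval of 7.44 to 11.6, and by 2.76 without 4T1 replicate 1 or 4.17 without 4T1 replicate 2. The last-exon change of -0.18 (SE 0.212) did not pass (edgeR adjusted p = 0.483). The authors' deposited table gives the site a log2 fold change of 2.98 (SE 0.54).

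Srsf10, an SR protein that acts as a splicing repressor when dephosphorylated, reached the highest usage of the 9 genes at its site at chr4:135414231-135415089 (mm9, plus strand). It had 88 and 103 IPA reads in 4T1-U1-ASO, against 5 and 28 reads in 4T1. The last exon had 80 and 64 reads in 4T1-U1-ASO, against 48 and 124 reads in 4T1. Usage was 52.4% and 61.7% in 4T1-U1-ASO, against 9.43% and 18.4% in 4T1. The groups did not overlap in usage. Before scaling for depth, the last-exon reads of the 4T1 libraries lay on both sides of the treated ones. Divided by the authors' size factors (1.25 and 1.27 for 4T1-U1-ASO, 0.722 and 0.967 for 4T1), both 4T1 libraries lay above both treated ones. IPA reads rose by 1.98 (SE 0.37, edgeR adjusted p = 1.24e-05), by 1.38 without 4T1 replicate 1 and by 3.43 without 4T1 replicate 2, and the last-exon change of -0.79 (SE 0.342) did not pass (edgeR adjusted p = 0.0762). In the authors' deposited table its log2 fold change is 2.16 (SE 0.67, adjusted p 0.021).

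**Figure D4:**
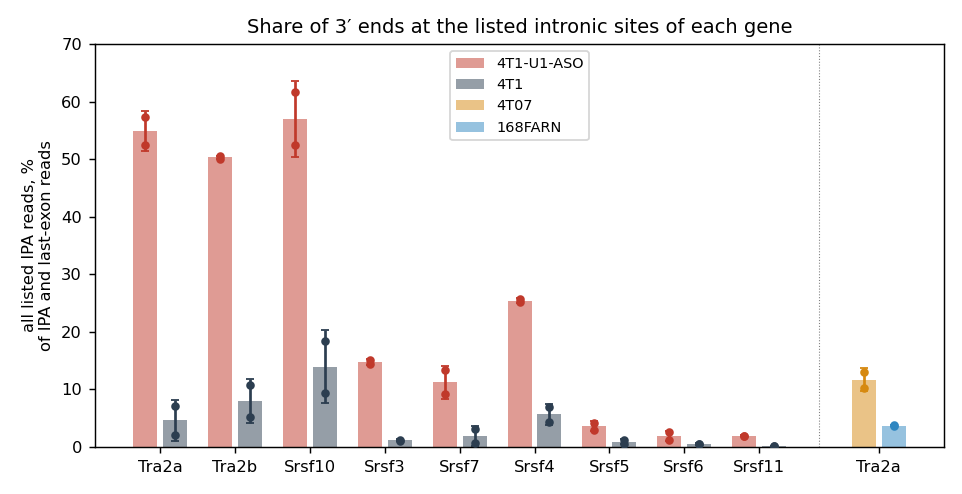
Reads at all listed IPA sites of a gene as a percentage of IPA and last-exon reads; bars are means of 2 libraries, error bars SD and points single libraries. Left of the dotted line, Tra2a, Tra2b and Srsf10 exceed 50% in all 4T1-U1-ASO libraries (red) and stay below 20% in 4T1 (dark); to the right, Tra2a has 11.7% in 4T07 and 3.69% in 168FARN.

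Srsf3 and Srsf7, similar small SR proteins with a single RNA recognition motif that also serve in mRNA export, gained IPA reads while their last exons lost reads. The last exon of Srsf3 had 432 and 522 reads in 4T1-U1-ASO, against 857 and 1104 reads in 4T1, a fall of 1.62 on the log2 scale (SE 0.184, edgeR adjusted p = 0.000416). With peak-list totals that change was -1.02 and still passed (edgeR adjusted p = 0.00979). Of its 3 sites (chromosome 17, mm9, plus strand), chr17:29176581-29176881 held 78.8% of the IPA reads in 4T1-U1-ASO. This site had 61 and 69 reads in 4T1-U1-ASO, against 3 and 6 reads in 4T1, with a usage of 12.4% and 11.7% in 4T1-U1-ASO, against 0.349% and 0.541% in 4T1. Its IPA reads rose by 3.25 (SE 0.481, edgeR adjusted p = 7.97e-08), and the authors' deposited table gives the relative change as 4.28 (SE 0.51), the largest log2 fold change of the 21 sites.

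The other 2 sites of Srsf3 did not pass in IPA reads alone. At chr17:29172241-29172458 there were 10 and 10 reads in 4T1-U1-ASO, against 6 and 5 reads in 4T1, and the log2 change of 0.28 (SE 0.594) did not pass (edgeR adjusted p = 0.668). At chr17:29177055-29177177 there were 6 and 9 reads in 4T1-U1-ASO, against 0 and 3 reads in 4T1, a ratio of 3.35 with a counting interval of 0.947 to 18.0. That change of 1.68 did not pass either (edgeR adjusted p = 0.0772), although it did with peak-list totals (2.25, adjusted p = 0.0126) and without 4T1 replicate 2 (adjusted p = 0.0451). Over its 3 sites, Srsf3 placed 15.1% and 14.4% of its reads at introns in 4T1-U1-ASO, against 1.04% and 1.25% in 4T1.

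Srsf7 had 1 listed site, at chr17:80603449-80604251 (mm9, minus strand), with 127 and 107 reads in 4T1-U1-ASO, against 9 and 53 reads in 4T1. Its last exon had 830 and 1062 reads in 4T1-U1-ASO, against 1460 and 1681 reads in 4T1. Usage was 11.2% ± 2.91 in 4T1-U1-ASO and 1.83% ± 1.73 in 4T1 (SD, n = 2 each). IPA reads rose by 1.38 (SE 0.334, edgeR adjusted p = 0.00047), by 0.76 without 4T1 replicate 1 and by 2.88 without 4T1 replicate 2. Last-exon reads fell by 1.33 (SE 0.196, edgeR adjusted p = 0.001). With peak-list totals the last-exon change was -0.72 and still passed (edgeR adjusted p = 0.0191). Of the IPA rise, limma on log2 values with a pseudocount of 1 gave 1.77 (SE 0.756), which did not pass (adjusted p = 0.102).

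Srsf4, Srsf5 and Srsf6 are SR proteins with a pair of RNA recognition motifs, and the tests passed at different ends in each of them. Srsf6 had 12 and 6 IPA reads in 4T1-U1-ASO, against 7 and 6 reads in 4T1, at chr2:162758732-162759593 (mm9, plus strand), only 368 bases before the last-exon peaks. Its IPA change of -0.11 (SE 0.591) did not pass (edgeR adjusted p = 0.862) and turned to 0.03 with TMM scaling and 0.48 with peak-list totals. Its last exon had 465 and 485 reads in 4T1-U1-ASO, against 1185 and 1380 reads in 4T1, a fall of 2.03 (SE 0.179, edgeR adjusted p = 0.000322) that was -1.42 with peak-list totals (adjusted p = 0.00358). Usage was accordingly 1.87% ± 0.915 in 4T1-U1-ASO and 0.51% ± 0.109 in 4T1, with no detectable rise in the IPA reads themselves at this depth.

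In Srsf5, whose site is at chr12:82049331-82050319 (mm9, plus strand), the IPA reads passed the test and the last-exon reads did not. It had 24 and 19 IPA reads in 4T1-U1-ASO, against 2 and 8 reads in 4T1, and 550 and 611 last-exon reads in 4T1-U1-ASO, against 351 and 670 in 4T1. Its IPA reads rose by 1.52 (SE 0.554, edgeR adjusted p = 0.0134), and the last-exon change of -0.36 (SE 0.218) did not pass (edgeR adjusted p = 0.181). With usage at 3.60% ± 0.824 in 4T1-U1-ASO and 0.873% ± 0.434 in 4T1, this was a small share of the gene's ends. The IPA call did not hold with DESeq2 (adjusted p = 0.139), or without 4T1-U1-ASO replicate 1, 4T1-U1-ASO replicate 2 or 4T1 replicate 1, and the change was 2.57 without 4T1 replicate 2.

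Srsf4 had 4 listed sites spread along the gene on chromosome 4 (mm9, plus strand), which together took 25.7% and 25.1% of its reads in 4T1-U1-ASO, against 6.99% and 4.41% in 4T1. Its last exon had 130 and 128 reads in 4T1-U1-ASO, against 173 and 195 reads in 4T1, a fall of 1.11 (SE 0.213, edgeR adjusted p = 0.00306). The fall was -0.50 with peak-list totals and then did not pass (edgeR adjusted p = 0.0716). The first site of the gene, chr4:131431708-131432518, had 16 and 6 reads in 4T1-U1-ASO, against 1 and 0 reads in 4T1, and its IPA reads rose by 3.64 (SE 1.1, edgeR adjusted p = 0.00236). Without 4T1 replicate 2 this change was 2.56 and did not pass (adjusted p = 0.12), and DESeq2 gave an adjusted p of 0.0836. The last of the 4 sites, chr4:131453282-131453787, had the most reads, 16 and 20 in 4T1-U1-ASO against 10 and 4 in 4T1, yet its IPA change of 0.76 (SE 0.532) did not pass (edgeR adjusted p = 0.183), and was 1.76 without 4T1 replicate 1 (adjusted p = 0.0396) and 0.04 without 4T1 replicate 2. The 2 sites between them had 5 to 11 reads per 4T1-U1-ASO library, against 0 to 3 reads per 4T1 library, and did not pass in IPA reads either (edgeR adjusted p = 0.106 and 0.097). In the authors' deposited table the 4 log2 fold changes of Srsf4 run from 1.55 to 2.99.

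Srsf11, an SR protein found in nuclear speckles, had a site 12144 bases upstream of its last-exon peaks, at chr3:157687673-157687932 (mm9, minus strand). It had 14 and 15 reads in 4T1-U1-ASO, against 1 and 1 read in 4T1, and its usage was 1.94% ± 0.0556 against 0.137% ± 0.0274 (SD, n = 2 each). Its IPA reads rose by 3.16 (SE 0.832, edgeR adjusted p = 0.000816), a ratio of 9.71 with a counting interval of 2.46 to 84.0, and the DESeq2 value missed the threshold (3.27, adjusted p = 0.0615). Last-exon reads, 694 and 775 in 4T1-U1-ASO against 639 and 850 in 4T1, fell by 0.60 with the authors' size factors (SE 0.171, edgeR adjusted p = 0.0168) and moved by 0.00 with peak-list totals. The IPA changes of Srsf11 and Tra2b, 3.16 and 3.24, thus went with usages of 1.94% and 50.3% in 4T1-U1-ASO.

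The 4T1 libraries themselves differed at these sites. Usage was higher in 4T1 replicate 2 than in replicate 1 at 14 of 21 member sites (66.7%) and lower at 6. Of all 1561 sites it was higher at 636 (40.7%), lower at 718 and equal at 207. The member sites in Tra2a share 1 last exon, and its minor sites had 0 or 1 read per 4T1 library. The gap was plainest at the sites with most reads: the 9 and 53 reads of Srsf7, the 5 and 28 of Srsf10, the 19 and 68 of Tra2b, and the 0 and 17 of the most used Tra2a site. As the values given with 1 of the 4T1 libraries left out show, the IPA rises of Srsf7, Srsf10, Tra2b and the Tra2a site at chr6:49210041-49211611 were smaller without replicate 1 and larger without replicate 2, and passed the edgeR test both ways. Usage was higher in 4T1-U1-ASO than in either 4T1 library at all 21 sites.

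Between the cell lines, Tra2a was the member gene with listed sites, and it was listed in 1 of 4 comparisons. The authors' deposited tables hold 0 SR or Tra2 sites among 122 for 4T1 against 67NR, 0 among 214 for 4T07 against 67NR, and 0 among 85 for 4T1 against 168FARN. For 4T07 against 168FARN, 2 of 329 listed sites were in Tra2a and both were higher in 4T07, where 20.4% of the listed sites were higher. Of the sites in these 3 tables, 23.8%, 17.8% and 24.7% were higher in the first-named line. A gene without a row was not selected at the tables' adjusted p limit of 0.1, and its usage was not analysed here.

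The Tra2a site at chr6:49202725-49203931, whose start is that of the most used site under U1 block, had 22 and 18 reads in 4T07, against 3 and 4 reads in 168FARN. In 4T07 its usage was 4.20% ± 1.24, and in 168FARN it was 0.922% ± 0.00601 (SD, n = 2 each). The other, chr6:49209572-49211611, spans a pair of the sites listed under U1 block and had 40 and 42 reads in 4T07, against 9 and 13 reads in 168FARN. Its usage was 8.15% ± 1.02 in 4T07 and 2.82% ± 0.137 in 168FARN. The lines did not overlap at either site. Usage was higher in both 4T07 libraries than in both 168FARN libraries at 20.4% of the 329 listed sites, the same share as is listed as higher. Since the authors had selected the sites, all 329 pass a test of IPA relative to the last exon. The p-values of this comparison add no independent evidence. IPA reads rose by 2.53 (SE 0.518, edgeR adjusted p = 3.46e-06) and by 1.95 (SE 0.371, edgeR adjusted p = 8.73e-07), where 19.9% of the 321 sites tested rose. The authors' deposited table gives the relative changes as 1.69 (SE 0.48, adjusted p 0.013) and 1.38 (SE 0.39, adjusted p 0.012), so both sites would drop out at a limit of 0.01.

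Together the 2 sites took 13.1% and 10.3% of Tra2a reads in 4T07, against 3.60% and 3.79% in 168FARN. The last exon of Tra2a had 411 and 523 reads in 4T07, against 321 and 432 reads in 168FARN, a log2 change of 0.37 (SE 0.124, edgeR adjusted p = 0.0227) below the 0.48 median of all 284 genes, of which 52.8% rose. That last-exon call did not hold without 4T07 replicate 1, 4T07 replicate 2 or 168FARN replicate 1, nor with limma. Higher intronic usage of Tra2a in 4T07 thus stood beside a last-exon level that was not lower than in 168FARN. In 67NR replicate 1, the peak list gives at least 9 reads at the first and 8 at the other site, beside 550 last-exon reads.

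Last-exon peaks could be matched to the tables in the peak lists for Tra2a, Tra2b, Srsf3, Srsf6 and Srsf11, which allowed their last-exon ends to be followed over the 5 groups, as reads scaled to a list total of 1000000 (RPM). For Srsf6 the values were 181 and 184 in 4T1-U1-ASO and 475 and 495 in 4T1, with 373 and 372 in 4T07, 447 and 437 in 168FARN and 328 in 67NR replicate 1. For Srsf3 they were 166 and 197 in 4T1-U1-ASO and 343 and 395 in 4T1, with 252 and 284 in 4T07, 255 and 320 in 168FARN and 302 in 67NR replicate 1. The U1-blocked cells were thus below each of the other groups for both genes, and for Srsf3 the 4T07 and 168FARN libraries overlapped.

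Tra2a had 171 and 224 last-exon RPM in 4T1-U1-ASO and 166 and 223 in 4T1, with 150 and 168 in 4T07, 112 and 143 in 168FARN and 164 in 67NR replicate 1. Tra2b had 198 and 254 in 4T1-U1-ASO and 136 and 203 in 4T1, with 104 and 89.5 in 4T07, 104 and 124 in 168FARN and 121 in 67NR replicate 1. For both genes the treated and control 4T1 libraries overlapped. Srsf11 had 267 and 293 in 4T1-U1-ASO and 256 and 304 in 4T1, again overlapping. Its other values were 182 and 193 in 4T07, 99.1 and 105 in 168FARN and 151 in 67NR replicate 1. The order for Srsf11 was thus 4T1 above 4T07, 4T07 above 67NR and 67NR above 168FARN, with no overlap between these lines and 1 library standing for 67NR.

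**Figure D5:**
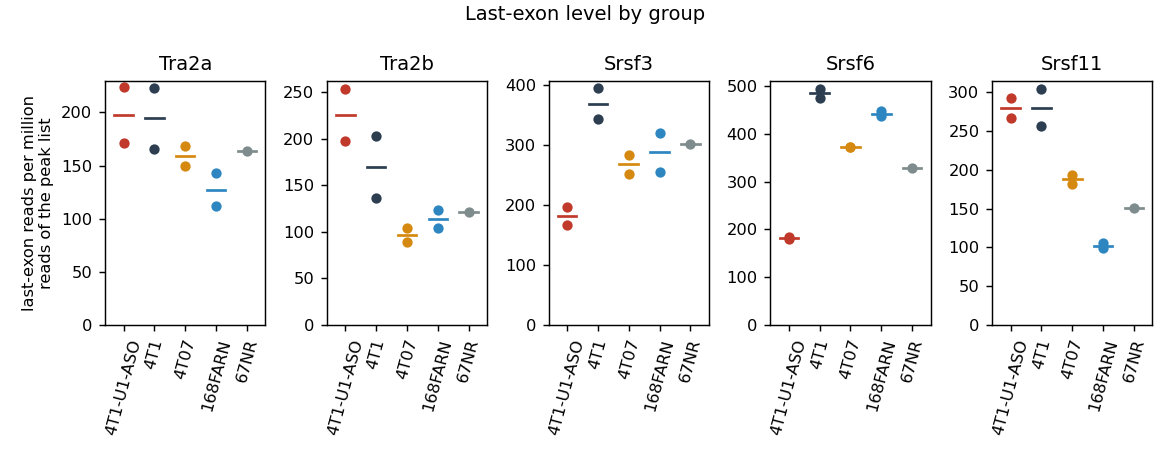
Last-exon RPM (reads scaled to 1000000 reads of the peak list) for 5 genes; points are libraries, horizontal lines group means, and 67NR is replicate 1 alone. Srsf3 and Srsf6 lie lowest in 4T1-U1-ASO, with means of 182 each against 369 and 485 in 4T1, while Tra2a, Tra2b and Srsf11 overlap between 4T1-U1-ASO and 4T1.

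Proteins that work with SR proteins were followed in the same tables. The tables hold only selected sites, so how the listed shares of the lists below compare with that of all genes was not analysed here. Of 26 SR-related genes, 9 had listed sites in the U1 comparison (Arglu1, Bclaf1, Luc7l, Luc7l2, Rsrc1, Scaf4, Sfswap, Son and Srrm2), and IPA reads rose at 17 of their 17 sites in the edgeR test, where 57.2% of all sites rose. All 17 are listed as higher, while all sites include 193 listed as lower, so these shares do not compare like sites. In the authors' deposited table their largest log2 fold changes were 4.43 for Luc7l2, a homologue of a yeast U1 particle protein, 3.31 for Srrm2 and 2.54 for Son, both scaffolds of nuclear speckles, and 2.52 for Luc7l. Usage of the Luc7l2 site was 43.0% ± 0.546 in 4T1-U1-ASO and 0.893% ± 1.26 in 4T1. Luc7l2 had 6 listed sites, the most in that list, which sets it beside the 8 of Tra2a. These 6 are among the 17 sites that rose, and sites of 1 gene are not independent measurements. Usage of the Srrm2 site was 24.4% ± 4.45 in 4T1-U1-ASO and 2.2% ± 0.677 in 4T1. The other listed Srrm2 site rose by 0.50 in IPA reads and passed narrowly (edgeR adjusted p = 0.0487).

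Of 10 genes for SR protein kinases and import, Clk3 and Srpk1, both of which phosphorylate SR proteins, had 1 listed site each. Usage of the Clk3 site was 17.2% ± 2.76 in 4T1-U1-ASO and 4.52% ± 1.86 in 4T1, and its IPA reads rose by 1.45 (edgeR adjusted p = 0.0102). Usage of the Srpk1 site was 35.7% ± 1.24 in 4T1-U1-ASO and 18.8% ± 4.25 in 4T1, its IPA change of 0.05 did not pass (edgeR adjusted p = 0.873), and its last-exon reads fell by 1.21 (edgeR adjusted p = 0.00101). Of 15 genes for nonsense-mediated decay and the exon junction complex, Magoh and Rbm8a, core parts of that complex, had 1 listed site each. Their usage was 2.90% ± 0.402 and 9.83% ± 0.557 in 4T1-U1-ASO, against 0.416% ± 0.588 and 3.99% ± 0.498 in 4T1, and neither passed in IPA reads alone (edgeR adjusted p = 0.201 for both). Last-exon reads fell by 1.63 for Magoh (edgeR adjusted p = 0.000372) and by 0.86 for Rbm8a (edgeR adjusted p = 0.00386). None of the genes of these 3 lists had a listed site in a comparison of lines.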

How the data were processed

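The libraries were made by oligo-dT primed 3′-end sequencing of fragmented poly(A)+ RNA, per the labels' protocols. Build mm9 and 4 tools are listed in the submitters' processing notes, with no role for each: DESeq2 1.4.5, bedtools 2.17.0, SAMtools 1.1 and Bowtie2 2.2.5. The authors deposited, per library, a filtered peak list with a read count per peak, whose filter no source used here describes. Per the file headers, the 10 deposited IPA tables hold the log2 fold change and its SE, the statistic (a score), p-values, adjusted p-values that reach at most 0.1, and the normalised read signal of the site and of the last exon in each library. Each comparison was normalised separately by the authors.

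Each signal value was a whole multiple of 1 step per library, and 100% of values gave whole reads within a tolerance of 0.1 read. The tests used edgeR 4.0.16 under R 4.3.3 (quasi-likelihood, the authors' size factors, at least 10 reads over the libraries, Benjamini-Hochberg over all listed sites of a comparison, threshold 0.05). All 21 and 2 member sites passed that filter. Fold changes are the first-named group over the second; the deposited sign fits this in every table used for a member. DESeq2 1.42.0, limma 3.58.1 on log2 values with pseudocounts of 1 and 5, TMM, no filter, replicate blocks, single libraries left out and stricter limits were alternatives; scaling by peak-list totals and stricter limits for the related gene lists were added after seeing the data. The fits were tested on simulated data: of sites changed by 3 log2 units in the U1 comparison, 81.5% were recovered by the test of IPA reads, and of those changed by 1, 9.23%. The simulation gave every site 1 fixed spread between libraries (dispersion), above the common value of 0.0187 fitted to the IPA reads. It left 1281 of 1476 sites unchanged, so these rates need not hold for the data themselves.

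Usage is IPA reads over IPA plus last-exon reads. Ratio intervals are 95% exact binomial intervals and cover counting error only, as does the floor of 3 reads; reads carry no molecular identifiers. Last-exon peaks were identified as the peak-list window whose reads came within 1% of the table's last-exon reads in the 4 libraries of the U1 comparison. Peak-list totals depend on what the authors' filter kept. The lists of both 4T1-U1-ASO libraries and of 168FARN replicate 2 cover 21 chromosomes. Those of both 4T1 and both 4T07 libraries, 168FARN replicate 1 and 67NR replicate 1 cover 19. RPM and scaling by peak-list totals thus use totals over unlike sets of chromosomes. Coordinates are 1-based (mm9). That a site is intronic is the authors' call, as no mm9 annotation was used here. Every member row is described; of the related gene lists, all listed genes are named, with values for at most the 4 with the largest deposited log2 fold change. The members and gene lists were chosen with earlier results of these data known.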

Additional observations from a re-analysis of the deposited data

How the results depend on the processing

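For single sites and genes, these changed sign: the IPA change of the first Srsf3 site was -0.07 without 4T1 replicate 2 (-0.07 to 0.61 over the libraries left out), that of Srsf6 was 0.03 with TMM, 0.48 with peak-list totals, 0.29 without 4T1-U1-ASO replicate 2 and 0.20 without 4T1 replicate 1 (-0.70 to 0.29 over the libraries left out), and with peak-list totals the last-exon changes were 0.00 for Srsf11, 0.22 for Srsf5, 0.02 for Tra2a and 0.41 for Tra2b, of which Srsf11 and Tra2a had passed as falls. The causes were not tested beyond the scaling itself. DESeq2 called 8 member sites higher in IPA reads (279 of all sites, against 893 with edgeR), and peak-list totals left 3 last-exon falls (293 of all genes, against 621). Leaving out 1 library leaves 1 group with 1 library, so effect sizes are given for these fits. The median IPA change was then 2.76 to 3.6 over the 19 or 21 member sites tested, against 1.17 to 1.7 over all sites tested. For last-exon reads it was -0.978 to -0.605 over the 9 genes, against -0.71 to -0.622 over all genes tested. For the relative change it was 3.29 to 4.32 over the members, against 2.29 to 2.36 over all sites. The relative change missed the threshold for the last Srsf4 site (1.67) without 4T1-U1-ASO replicate 2. It did so for Srsf5 (1.63) and Srsf6 (1.31) without 4T1-U1-ASO replicate 1. Usage stayed higher at 21 of 21 sites. In 4T07 against 168FARN, the last-exon call of Tra2a counted 0 to 1 with a library left out and 0 with limma at both pseudocounts, and 0 member sites are listed at an adjusted p of at most 0.01. For the related lists, kinases and import had 1 listed site at 0.05 and 0 at 0.01, SR-related genes 8 at 0.01, and decay and exon junction 0 at 0.01. With the replicate number as a block, no member call changed. Under U1 block there were 21 relative rises (1368 of all 1561 sites), 15 IPA rises (686 of 1561) and 6 last-exon falls (587 of 1131 genes). In the line comparison there were 2 relative rises (67 of 329), 2 IPA rises (58 of 321) and 1 last-exon rise (149 of 284). Same-numbered libraries did not deviate together under U1 block (correlation -0.0303 for IPA and -0.0328 for last exons). With 2 pairs the numbers do not pair the libraries (0.16 and 0.0631 in the line comparison). Depth limits the sites with under 30 reads over the treated libraries, where counting intervals span a wide range.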

Other observations

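The peak lists did not hold every read of the tables. Of 84 combinations of a member site and a library of the U1 comparison, 74 had reads in the table, and 24 of these had no overlapping peak in that library's list; the reads were equal in 54 of the 84. At the Tra2a site chr6:49209572-49211611, the lists of the 4T1 libraries give 0 and 0 reads, while the tables give 5 and 24 reads for the site within it at chr6:49210041-49211611. A missing peak in these lists is therefore not a 0. For Tra2a in 4T07, the list reads at the most used site were 22 and 18, equal to the table, and at the wider site 32 and 30, against 40 and 42 in the table.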
